A study of Mus musculus with 15 samples.

Results

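Cxcl1, Cxcl2, Cxcl3 and Cxcl5 are the genes of the mouse neutrophil-attracting CXC chemokines considered here, and they were taken by symbol as 4 of the 55571 gene rows of the count table. All 4 passed the filter on low counts, which left 14571 genes for testing. The RNA came from cells of the mouse mammary carcinoma line E0771 that carried a form of Malt1 or an empty vector, with 3 libraries in each of 5 groups. The constructs were wild-type Malt1 (Malt1_WT), a mutant called PD in the labels (Malt1_PD) and the substitution mutants Malt1_V87R and Malt1_L88D, and the vector control carried no Malt1 construct. The Malt1_PD columns are named after a substituted cysteine and were assigned to that group because every other construct had columns of its own name. Per the series title, no T cells were cultured with the tumour cells. The labels give no promoter for the constructs, and do not say whether a line is a pool or 1 clone or whether replicates were grown separately, so p-values reflect the spread of these libraries alone, which may be technical.

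Chemokines of this family carry the residues ELR (glutamate, leucine, arginine) just before the first cysteine pair, bind the receptor CXCR2 and draw neutrophils out of the blood. Mice have no gene for human CXCL8 (IL-8), and these chemokines do its work: CXCL1 is also known as KC, CXCL2 as MIP-2 and CXCL5 as LIX. Their genes are textbook targets of NF-kB, and AU-rich elements in their mRNAs, repeats of ATTTA in the 3′ untranslated region, mark them for rapid decay. MALT1, a paracaspase, leads to NF-kB together with BCL10 and CARD-family proteins, and it works there both as a protease and as a scaffold. Val87 and Leu88 are neighbours in the death domain at its N terminus, which makes the contact with BCL10.

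The 4 genes lie on the plus strand of chromosome 5 (GRCm38), and no other annotated protein-coding gene overlaps any of them. Cxcl5 (ENSMUSG00000029371.7) spans 90759360 to 90761624, Cxcl3 (ENSMUSG00000029379.10) 90786103 to 90789600, Cxcl1 (ENSMUSG00000029380.11) 90891241 to 90893115 and Cxcl2 (ENSMUSG00000058427.10) 90903871 to 90905938. RefSeq promoters of GRCm38.p6 matched 3 of the 4, each of 300 bases from 250 before to 50 after the start site, at chr5:90890995-90891294 (Cxcl1), chr5:90903649-90903948 (Cxcl2) and chr5:90785851-90786150 (Cxcl3), and Cxcl5 was not matched. They are shown because all 3 hold the same run of 11 bases, given in capitals, which matches the NF-kB consensus on both strands.
Cxcl1: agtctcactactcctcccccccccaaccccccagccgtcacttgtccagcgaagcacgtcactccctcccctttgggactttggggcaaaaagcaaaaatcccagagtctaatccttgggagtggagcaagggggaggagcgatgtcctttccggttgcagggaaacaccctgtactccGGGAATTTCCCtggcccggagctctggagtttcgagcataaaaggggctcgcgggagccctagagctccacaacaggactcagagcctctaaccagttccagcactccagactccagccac
Cxcl2: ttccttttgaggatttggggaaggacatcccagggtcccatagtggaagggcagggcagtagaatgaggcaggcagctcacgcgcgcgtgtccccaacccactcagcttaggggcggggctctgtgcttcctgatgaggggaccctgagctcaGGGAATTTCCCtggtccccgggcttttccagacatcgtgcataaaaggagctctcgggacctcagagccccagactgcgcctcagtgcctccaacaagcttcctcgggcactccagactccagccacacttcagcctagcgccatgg
Cxcl3: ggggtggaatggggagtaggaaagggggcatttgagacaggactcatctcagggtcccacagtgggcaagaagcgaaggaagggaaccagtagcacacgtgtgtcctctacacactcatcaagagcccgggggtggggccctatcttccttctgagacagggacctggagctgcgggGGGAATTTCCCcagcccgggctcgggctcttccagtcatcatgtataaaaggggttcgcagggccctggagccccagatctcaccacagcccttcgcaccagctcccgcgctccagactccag

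The run began 71 bases before the start site in Cxcl1 (position -71), at -97 in Cxcl2 and at -73 in Cxcl3. These positions count from the RefSeq start sites, which differ from the GENCODE gene starts given above, most of all for Cxcl2. In Cxcl2 the run begins at base 90903802, and the GENCODE gene start is 90903871. Over the whole windows, the run included, the promoters were only moderately alike. Identity was 54.3% between Cxcl1 and Cxcl2, 53.9% between Cxcl1 and Cxcl3 and 57.9% between Cxcl2 and Cxcl3. The longest run shared by a pair lay elsewhere, with 20 bases between Cxcl1 and Cxcl2 and 13 in each other pair. The NF-kB consensus was found, on either strand, in 8.46% of 32851 promoters of the same length. The narrower spelling GGG, 2 bases of any kind and TTTCC, which the run also matches, was in 1.63% of them, and it had a further match in Cxcl2 at -78 and in Cxcl1 at -89 on the minus strand. Of the other motifs searched on both strands, the C/EBP spelling TTGC, 2 bases of any kind and CAA matched in Cxcl1 at -170 (2.08% of promoters) and TATAAA in Cxcl3 at -30 (13.6%). The AP-1 spelling TGANTCA (7.81% of promoters) and the interferon-response spelling GAAA, 2 bases of any kind and GAAA (3.44%) were not found in the 3 windows. A match is a match of letters only.

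AU-rich sequence was counted in the 3′ untranslated region of the longest protein-coding GENCODE M21 transcript. ATTTA occurred 7 times in the 592 bases of Cxcl1, 11 times in the 1494 bases of Cxcl2, 5 times in the 645 bases of Cxcl3 and 5 times in the 1111 bases of Cxcl5. The 30-base window of each gene with the most ATTTA is shown with that pentamer in capitals, because the windows show how the genes differ, from 5 copies in Cxcl2 and 4 in Cxcl1 to 2 in Cxcl3 and 1 in Cxcl5. They start at base 79 of the region in Cxcl1, 883 in Cxcl2, 181 in Cxcl3 and 121 in Cxcl5.
Cxcl1: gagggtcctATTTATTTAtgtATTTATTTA
Cxcl2: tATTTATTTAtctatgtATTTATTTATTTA
Cxcl3: caagatggcatcttATTTAatgtttATTTA
Cxcl5: agcttcctgctcatctcacaagtgtATTTA

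The longer motif TATTTAT, whose copies may overlap each other, occurred 6 times in Cxcl1, 7 times in Cxcl2, 2 times in Cxcl3 and 1 time in Cxcl5. Of 1782 regions of 500 to 700 bases, 16.1% had at least 1 copy, 3.70% at least 2 and 0.0561% at least 6. Of 3185 regions of 1000 to 1600 bases, 31.2% had at least 1 and 0.157% at least 7. The 4 genes themselves are counted in these classes, and the 0.0561% is Cxcl1 alone. Cxcl1 and Cxcl2 were therefore in the thin upper end of their length classes, whereas regions with at least 1 copy, like Cxcl5, were common at its length. For Cxcl2 the count and the class hold for the transcript of 1859 bases only. Its other protein-coding transcript, of 1109 bases, was not counted.

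Library totals ran from 15471746 to 21458457 counts. Levels are given in CPM, in which the counts of each library are set to a common total after TMM adjustment. The ± of a CPM is the SD over n = 3 libraries, whereas the ± of a log2 fold change is its standard error (SE) in edgeR. The gene Malt1 had 202 ± 7.96 CPM with Malt1_WT, 249.8 ± 8.87 with Malt1_PD, 279 ± 1.35 with Malt1_V87R and 251 ± 6.74 with Malt1_L88D, against 28.1 ± 1.92 CPM with the vector, so its level fitted the labels in every group. The construct cannot be told from the endogenous gene in these counts.

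With wild-type Malt1 or Malt1_PD, mRNAs of Cxcl1, Cxcl2 and Cxcl3 stood many times above the vector. With the death-domain mutants they stood 1.36-fold to 2.53-fold above it. Cxcl1 was the most abundant of the 4 in every library. It had 1809, 1691 and 1760.0 CPM with Malt1_WT, 1625, 1464 and 1478 with Malt1_PD, 297, 292 and 309 with Malt1_V87R, and 268, 275 and 286 with Malt1_L88D, against 208, 194 and 208 CPM with the vector. The 5 groups did not overlap in Cxcl1, and their order was Malt1_WT, Malt1_PD, Malt1_V87R, Malt1_L88D, vector from the highest down.

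Cxcl2, the early-response chemokine MIP-2, had the widest range. Its level was 284, 267 and 269.9 CPM with Malt1_WT, 186, 176 and 178 with Malt1_PD, 9.08, 10.4 and 11.2 with Malt1_V87R, and 9.08, 10.7 and 11.3 with Malt1_L88D, against 4.69, 4.05 and 3.53 CPM with the vector. Malt1_V87R and Malt1_L88D overlapped almost fully, and every other pair of groups was apart.

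Cxcl3, which in its coding sequence is 87.8% identical to Cxcl2, was likewise highest with Malt1_WT and next with Malt1_PD. It had 79.3, 84.0 and 83.9 CPM with Malt1_WT, 74.6, 73.3 and 67.4 with Malt1_PD, 5.20, 3.90 and 4.76 with Malt1_V87R, and 5.49, 3.33 and 4.90 with Malt1_L88D, against 3.11, 1.90 and 2.35 CPM with the vector. Again only Malt1_V87R and Malt1_L88D overlapped.

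Cxcl5 was near the limit of detection, at 8 to 34 counts a library. Its level was 1.37, 1.73 and 1.35 CPM with Malt1_WT, 1.22, 1.84 and 1.18 with Malt1_PD, 0.867, 1.02 and 1.70 with Malt1_V87R, and 1.32, 0.809 and 1.18 with Malt1_L88D, against 0.650, 0.491 and 0.539 CPM with the vector. All 12 libraries with a construct were above all 3 with the vector, but most construct groups overlapped each other, the pair of Malt1_L88D and Malt1_WT being apart.

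**Figure D1:**
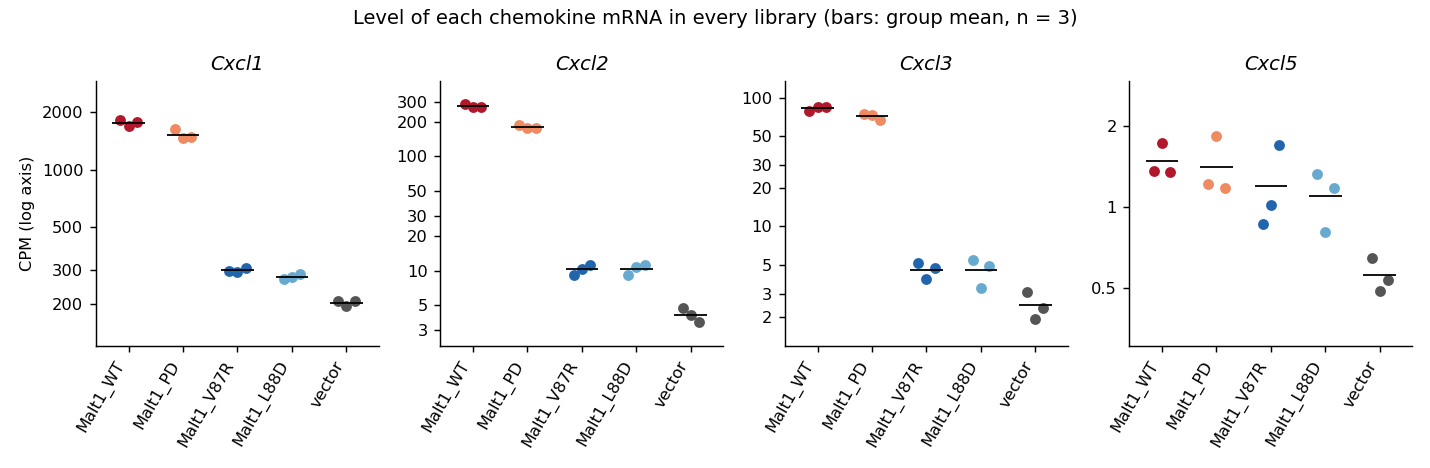
Level of Cxcl1, Cxcl2, Cxcl3 and Cxcl5 (CPM, log axis) in every library of the 5 groups, with a bar at the mean of 3 libraries. Malt1_WT and Malt1_PD form an upper pair for Cxcl1, Cxcl2 and Cxcl3, Malt1_V87R and Malt1_L88D lie far lower but above the vector, and Cxcl5 stays under 2 CPM throughout.

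Each construct was first compared with the vector, which asks what each form of Malt1 changes in these tumour cells. These 4 comparisons share the vector libraries, so their values are given side by side only. With Malt1_WT, all 4 genes were called higher at an adjusted p under 0.05 (edgeR quasi-likelihood, Benjamini-Hochberg over all genes), in a comparison that called 54.9% of genes either way and 27.2% as higher. Cxcl2 rose by 6.06 ± 0.08 on the log2 scale, 66.6-fold with a 95% interval of 59.6 to 74.5 (adjusted p = 1.7e-29), which was the change of rank 9 from the top among genes tested. Cxcl3 rose 32.9-fold (interval 27.7 to 38.9, adjusted p = 7.9e-22, rank 26). Cxcl1 rose 8.63-fold (interval 8.10 to 9.20, adjusted p = 1.3e-28, rank 145). Cxcl5 rose 2.61-fold with a wide interval of 1.61 to 4.25 (adjusted p = 0.0011). The median log2 fold change was 4.07 over the 4 genes and -0.01 over all genes.

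Malt1_PD gave a similar pattern against the vector, again with all 4 genes higher, where 44.8% of genes were called and 22.8% as higher. Cxcl2 rose by 5.45 ± 0.08 on the log2 scale, or 43.8-fold (edgeR adjusted p = 2.6e-28, rank 6). Cxcl3 rose 28.6-fold (adjusted p = 4.5e-21, rank 12) and Cxcl1 7.49-fold (adjusted p = 6.5e-28, rank 79). Cxcl5 rose 2.46-fold (interval 1.52 to 3.99, adjusted p = 0.0024). The 4 genes had a median log2 fold change of 3.87.

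The death-domain mutants gave smaller rises in the same genes. With Malt1_V87R all 4 were called higher, where 11.7% of genes were called and 7.01% as higher. Cxcl2 rose 2.50-fold in Malt1_V87R (log2 1.32 ± 0.11, edgeR adjusted p = 2.3e-10, rank 149), Cxcl3 1.84-fold (0.88 ± 0.18, adjusted p = 0.0012, rank 394) and Cxcl1 1.47-fold (0.56 ± 0.04, adjusted p = 4.1e-11, rank 813). With Malt1_L88D 3 of the 4 were called higher, where 17.4% of genes were called and 8.96% as higher. Cxcl2 rose 2.53-fold in Malt1_L88D (log2 1.34 ± 0.11, adjusted p = 2.4e-10, rank 191), Cxcl3 1.79-fold (0.84 ± 0.18, adjusted p = 0.0021, rank 482) and Cxcl1 1.36-fold (0.44 ± 0.04, adjusted p = 6.3e-09, rank 1397). The median log2 fold change over the 4 genes was 0.98 in Malt1_V87R and 0.89 in Malt1_L88D.

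For Cxcl5, a ligand best known from epithelial cells, the calls in the death-domain mutants rested on few counts. In Malt1_V87R it was 2.10-fold above the vector (log2 1.07 ± 0.34, edgeR adjusted p = 0.039). That call was lost without Malt1_V87R replicate 2 (log2 1.18, adjusted p = 0.050), without Malt1_V87R replicate 3 (0.74, adjusted p = 0.23) and without vector replicate 1 (1.2, adjusted p = 0.067), 2 (0.99, adjusted p = 0.083) or 3 (1.04, adjusted p = 0.11). In Malt1_L88D its log2 difference was 0.93 ± 0.36 with an interval of 0.21 to 1.66 (adjusted p = 0.070), and without Malt1_L88D replicate 2 it was 1.14 (adjusted p = 0.049).

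Expressed as a share of the CPM rise seen with Malt1_WT over the vector, the rise of Cxcl1 was 85.1% in Malt1_PD, 6.22% in Malt1_V87R and 4.72% in Malt1_L88D. For Cxcl2 the share was 65.2% in Malt1_PD, 2.28% in Malt1_V87R and 2.32% in Malt1_L88D. For Cxcl3 it was 86.7% in Malt1_PD, 2.71% in Malt1_V87R and 2.65% in Malt1_L88D. The death-domain mutants thus had at most 6.22% of the wild-type CPM rise in these 3 genes, whereas for Cxcl5 the shares were 92.5% in Malt1_PD, 69.3% in Malt1_V87R and 59.2% in Malt1_L88D.

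**Figure D2:**
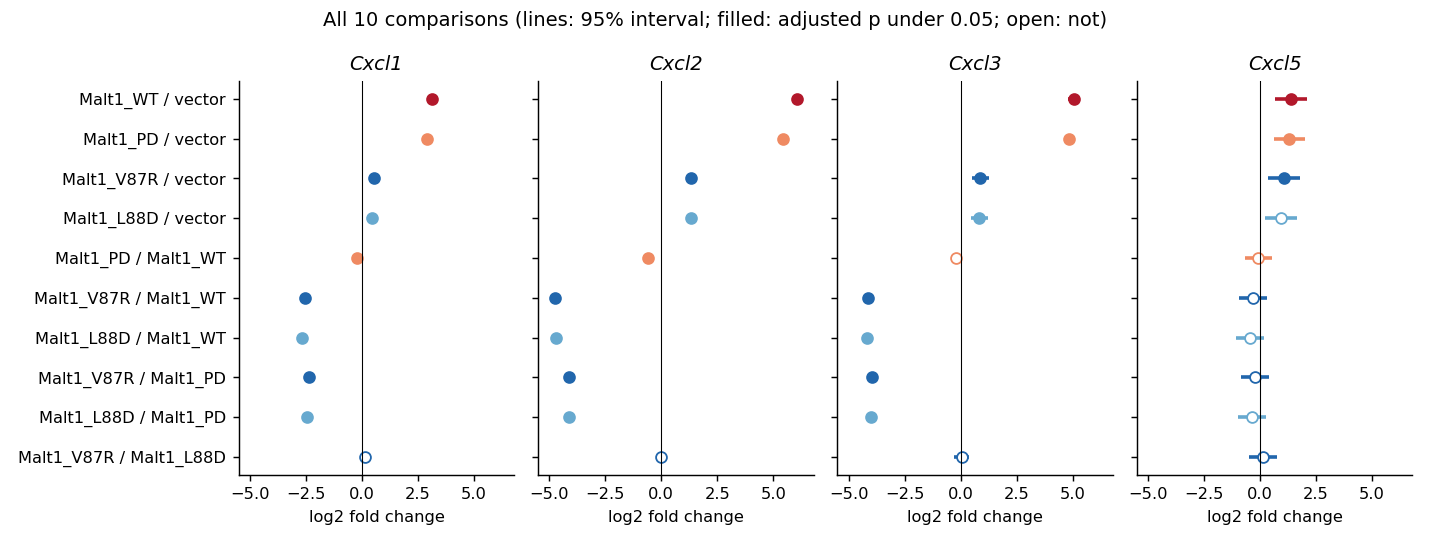
Log2 fold changes of Cxcl1, Cxcl2, Cxcl3 and Cxcl5 in all 10 pairwise comparisons of the groups, with 95% intervals as lines, filled points for an adjusted p under 0.05 and open points otherwise. Cxcl2 runs from 6.06 in Malt1_WT against vector to -4.74 in Malt1_V87R against Malt1_WT, and Cxcl5 has open points in every comparison between constructs.

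Malt1_PD was then compared with Malt1_WT, which asks what the PD mutation changes. Cxcl2 and Cxcl1 were lower in Malt1_PD, 2 of the 4 genes, where 23.3% of genes were called and 10.7% as lower. Cxcl2 averaged 179.9 ± 5.57 CPM in Malt1_PD and 274 ± 9.18 CPM in Malt1_WT, a fold of 0.658 (interval 0.611 to 0.708, edgeR adjusted p = 4.5e-10). Cxcl1 averaged 1522 ± 89.0 CPM in Malt1_PD and 1753 ± 59.0 CPM in Malt1_WT, a fold of 0.868 (interval 0.819 to 0.920, adjusted p = 4.2e-04). Tested against a change of at least 1.2-fold, the call of Cxcl1 was lost (adjusted p = 1) and that of Cxcl2 was kept.

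Cxcl3 averaged 71.8 ± 3.85 CPM in Malt1_PD and 82.4 ± 2.71 CPM in Malt1_WT. The 3 Malt1_PD libraries were below the 3 Malt1_WT libraries, with a log2 difference of -0.20 ± 0.08 that missed the threshold (edgeR adjusted p = 0.058) and passed it without Malt1_PD replicate 2 (-0.22, adjusted p = 0.036). Blocking on the replicate number gave -0.20 (adjusted p = 0.032). Cxcl5 averaged 1.41 ± 0.370 CPM in Malt1_PD and 1.48 ± 0.212 CPM in Malt1_WT, with an interval of the log2 difference from -0.69 to 0.52. The level of Malt1 itself was higher in Malt1_PD than in Malt1_WT, by 0.31 on the log2 scale (adjusted p = 2.6e-06), and its part in these differences was not tested.

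Against Malt1_WT, the death-domain mutants had far less of the 3 abundant chemokine mRNAs. Malt1 mRNA was higher in these mutants by 0.47 (Malt1_V87R) and 0.32 (Malt1_L88D) on the log2 scale. The part of the Malt1 level in these differences was not tested. In Malt1_V87R 3 of the 4 genes were called lower, where 48.3% of genes were called and 23.4% as lower. Cxcl2 had a log2 fold change of -4.74 ± 0.07 in Malt1_V87R (edgeR adjusted p = 2.7e-28), Cxcl3 had -4.16 ± 0.11 (adjusted p = 7.5e-21) and Cxcl1 -2.55 ± 0.04 (adjusted p = 1.7e-26). In Malt1_L88D the same 3 were lower, where 45.1% of genes were called and 22.3% as lower. Cxcl2 had a log2 fold change of -4.72 ± 0.07 (adjusted p = 4.7e-28), Cxcl3 -4.20 ± 0.11 (adjusted p = 1.3e-20) and Cxcl1 -2.67 ± 0.04 (adjusted p = 6.1e-27). Cxcl5 had -0.31 in Malt1_V87R (interval -0.92 to 0.30, adjusted p = 0.41) and -0.45 in Malt1_L88D (interval -1.09 to 0.19, adjusted p = 0.25), both too wide to tell a small change from none at these counts.

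Against Malt1_PD the differences were only a little smaller. In Malt1_V87R 3 of the 4 genes were lower, where 41.5% of genes were called and 21.1% as lower, with log2 fold changes of -4.13 ± 0.07 for Cxcl2, -3.96 ± 0.11 for Cxcl3 and -2.35 ± 0.04 for Cxcl1 (edgeR adjusted p from 7.7e-27 to 3.4e-20). In Malt1_L88D the same 3 were lower, where 41.4% of genes were called and 21.4% as lower, with -4.12 ± 0.07 for Cxcl2, -4.00 ± 0.11 for Cxcl3 and -2.46 ± 0.04 for Cxcl1 (adjusted p from 1.4e-26 to 5.7e-20). Cxcl5 had -0.23 in Malt1_V87R (interval -0.83 to 0.38) and -0.37 in Malt1_L88D (interval -0.996 to 0.27).

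Between Malt1_V87R and Malt1_L88D none of the 4 genes was called, and edgeR called 0 of the 14571 genes (0% of those tested). At an unadjusted p under 0.05 there were 852 genes, where 728.55 are expected by chance. DESeq2 and limma-voom gave 0 calls. Fits of only the 6 libraries compared gave 25, no filter on low counts gave 5 and leaving out Malt1_L88D replicate 1 gave 2, none of them among the 4 genes. Cxcl1 averaged 299 ± 8.45 CPM in Malt1_V87R and 276 ± 9.21 CPM in Malt1_L88D, and the libraries did not overlap. Its log2 difference was 0.12 ± 0.04 with an interval of 0.03 to 0.20 (edgeR adjusted p = 0.74). The interval of the log2 difference ran from -0.21 to 0.17 for Cxcl2, from -0.29 to 0.37 for Cxcl3 and from -0.50 to 0.77 for Cxcl5. A difference of Cxcl5 of up to 1.71-fold thus lies inside its interval at these counts.

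To compare levels between genes, CPM was divided by the length of the longest protein-coding transcript in kilobases, 953 bases for Cxcl1, 1859 for Cxcl2, 1016 for Cxcl3 and 1575 for Cxcl5. On this scale Cxcl1 had 1839.9 ± 61.9 CPM per kb in Malt1_WT, Cxcl2 147 ± 4.94, Cxcl3 81.1 ± 2.67 and Cxcl5 0.940 ± 0.135. In Malt1_PD the same order held, with 1597 ± 93.4 CPM per kb for Cxcl1, 96.8 ± 3.0 for Cxcl2, 70.7 ± 3.79 for Cxcl3 and 0.896 ± 0.235 for Cxcl5. With the vector Cxcl1 had 213 ± 8.48 CPM per kb, while Cxcl2 (2.20 ± 0.313) and Cxcl3 (2.42 ± 0.601) overlapped. Cxcl2 also has a protein-coding transcript of 1109 bases, and at that length its vector level would be 3.69 ± 0.525 CPM per kb, above Cxcl3.

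The make-up of the 4 mRNAs differed with the level. Cxcl1 held 88.9 ± 0.246% of the summed CPM per kb with Malt1_WT, 90.5 ± 0.291% with Malt1_PD, 96.7 ± 0.171% with Malt1_V87R and 96.4 ± 0.332% with Malt1_L88D, against 97.7 ± 0.350% with the vector. Cxcl2 held 7.11 ± 0.102% with Malt1_WT, 5.49 ± 0.134% with Malt1_PD, 1.69 ± 0.157% with Malt1_V87R and 1.85 ± 0.153% with Malt1_L88D, against 1.01 ± 0.141% with the vector, or 11.4% with Malt1_WT, against 1.68% with the vector, at the shorter transcript length. The sum itself was 2111 ± 64.9 CPM with Malt1_WT, 1775 ± 96.6 with Malt1_PD, 316 ± 9.78 with Malt1_V87R and 292 ± 10.1 with Malt1_L88D, against 210.1 ± 8.71 CPM with the vector.

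Ratios within a library need no scaling between libraries. Cxcl2 per Cxcl1, on the CPM per kb scale, was 0.0607 ± 0.0016 in Malt1_PD and 0.0800 ± 0.0012 in Malt1_WT, a fold of 0.758, with no overlap. Cxcl3 per Cxcl1 was 0.0443 ± 0.0024 in Malt1_PD and 0.0441 ± 0.0028 in Malt1_WT, a fold of 1.00. Cxcl3 per Cxcl2 was 0.730 ± 0.035 in Malt1_PD and 0.552 ± 0.036 in Malt1_WT, also with no overlap, so the ratios with Cxcl2 in them were apart and the other one was not. With 3 libraries against 3, an exact two-sided permutation test cannot go below p = 0.1, the value for the first and the last of these ratios, and it gave p = 0.9 for Cxcl3 per Cxcl1. These are 3 of 30 such tests, 3 ratios in 10 comparisons, and none could pass an adjustment over them.

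**Figure D3:**
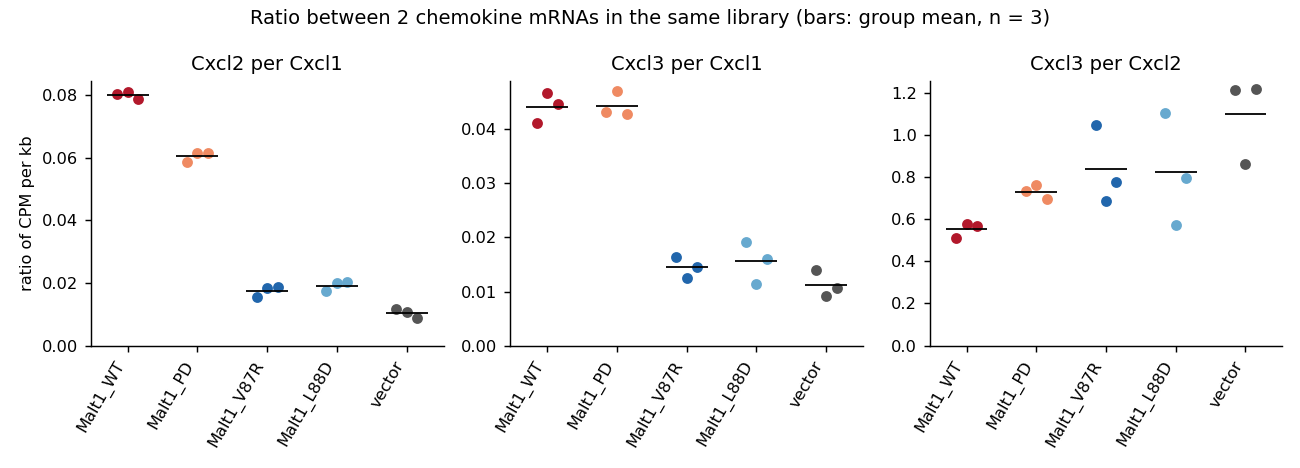
Ratios of Cxcl2 to Cxcl1, Cxcl3 to Cxcl1 and Cxcl3 to Cxcl2 in each library (ratio of CPM per kb, linear axis from 0), with a bar at the mean of 3 libraries. Cxcl2 per Cxcl1 steps down through Malt1_WT, Malt1_PD, the death-domain mutants and the vector, whereas Cxcl3 per Cxcl1 averages 0.0443 in Malt1_PD and 0.0441 in Malt1_WT.

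Shared sequence could blur the split between Cxcl2 and Cxcl3. Their transcripts share a run of 110 bases, and 61 of the 1810 stretches of 50 bases in Cxcl2 (3.37%) also occur in Cxcl3, so reads there could be assigned to either or dropped. No stretch of 50 bases was shared between any other pair of the 4 genes, and coding sequences of Cxcl5 were 47% to 50% identical to the others. Cxcl5 shares 31 stretches of 50 bases with 4930470B04Rik, 30 with Ilf2, 7 with Cd69 and 2 with Gm29245, and how the authors counted reads that fit several genes is not given in the sources used here.

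Neighbours on chromosome 5 were read over 250 kb to either side of the Cxcl1 start, where GENCODE M21 has 11 protein-coding genes, the 4 chemokine genes included. Mthfd2l, a mitochondrial folate enzyme gene that starts 39.9 kb from the Cxcl1 start, was not called, with 28.5 ± 1.57 CPM in Malt1_WT against 31.2 ± 3.29 CPM with the vector (log2 -0.12 ± 0.08, edgeR adjusted p = 0.19), nor was it called with any other construct. Farther out, the EGF receptor ligand genes Ereg and Areg were called higher with all 4 constructs, and Epgn, at 136.2 kb, was not tested. Ereg, at 183.4 kb, rose by 2.11 ± 0.08 with Malt1_WT, 1.71 ± 0.08 with Malt1_PD, 0.60 ± 0.08 with Malt1_V87R and 0.70 ± 0.08 with Malt1_L88D on the log2 scale. Areg, at 248.4 kb, rose by 1.37 ± 0.06 with Malt1_WT, 0.92 ± 0.06 with Malt1_PD, 0.34 ± 0.06 with Malt1_V87R and 0.42 ± 0.06 with Malt1_L88D. Both took the order of Cxcl1 except that Malt1_L88D lay above Malt1_V87R, a difference that was not called.

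The other chemokine genes of the cluster were barely detected. Ppbp, the platelet basic protein and another ELR chemokine, averaged 0.552 ± 0.312 CPM with Malt1_WT, 0.493 ± 0.172 with Malt1_PD, 0.356 ± 0.155 with Malt1_V87R and 0.158 ± 0.145 with Malt1_L88D, against 0.219 ± 0.0939 CPM with the vector, and was not called against the vector (edgeR adjusted p = 0.069 in Malt1_WT). Between constructs it was called only in Malt1_L88D against Malt1_WT, as lower (log2 -1.70 ± 0.65, edgeR adjusted p = 0.033), where the libraries overlapped. Pf4, platelet factor 4, and Cxcl15, the lung chemokine lungkine, did not pass the filter on low counts, nor did Epgn, the gene of epigen.

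**Figure D4:**
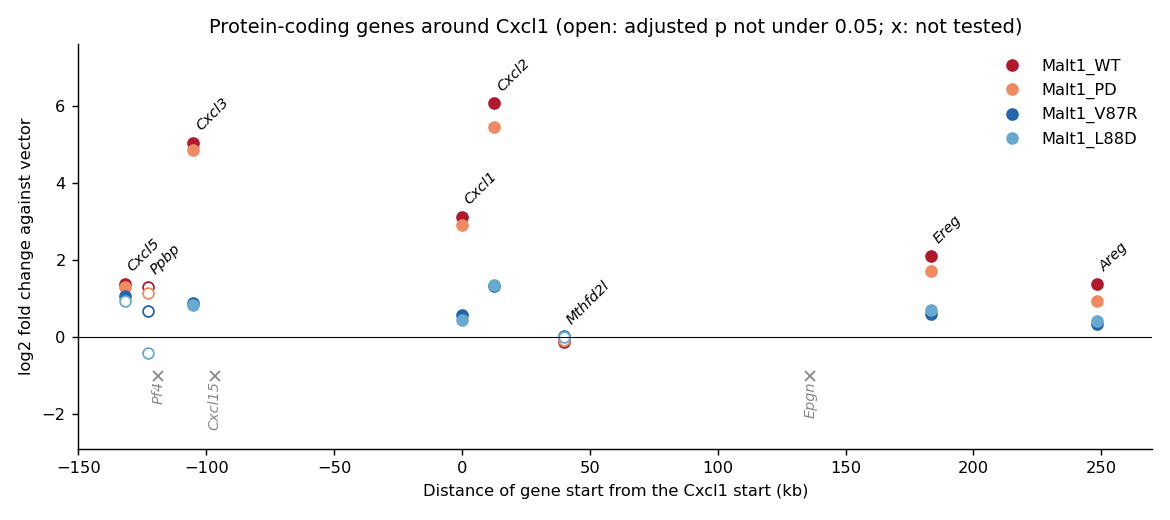
Log2 fold change against the vector (vertical axis) of the protein-coding genes around Cxcl1, placed by the distance of their start from the Cxcl1 start (kb), with filled points for an adjusted p under 0.05, open points otherwise and crosses, drawn at an arbitrary height, for genes that were not tested. Mthfd2l, at 39.9 kb, lies near 0 with open points for all 4 constructs between Cxcl2 on one side and Ereg and Areg on the other.

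Of 4 listed chemokine receptors, those that bind these ligands had few or no counts. Cxcr2, the receptor of these chemokines, reached at most 0.0652 CPM in a library, Cxcr1 at most 0.139 CPM, and Ackr1, a receptor that takes up chemokines without signalling, was at 0 in all 15 libraries. Ackr3, an atypical receptor known for binding other CXC chemokines, was the 1 tested gene of the 4, at 1.37 ± 0.225 CPM with Malt1_WT, 1.27 ± 0.518 with Malt1_PD, 1.53 ± 0.169 with Malt1_V87R and 1.42 ± 0.284 with Malt1_L88D, against 1.26 ± 0.465 CPM with the vector, and it was not called.

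Among CXC chemokines that lack the ELR residues, which bind other receptors, Cxcl9 and Cxcl10 were lower in Malt1_PD than in the death-domain mutants, whereas Cxcl16 was higher in Malt1_PD, as Cxcl1, Cxcl2 and Cxcl3 were. All 4 of the 8 listed that could be tested were called higher in Malt1_WT, in Malt1_PD and in Malt1_V87R against the vector. In Malt1_L88D 3 were called higher. Of all genes tested, 27.2% were called higher with Malt1_WT, 22.8% with Malt1_PD, 7.01% with Malt1_V87R and 8.96% with Malt1_L88D. Cxcl9, a CXCR3 ligand that attracts T cells, had 163 ± 8.18 CPM with Malt1_WT, 1.32 ± 0.501 with Malt1_PD, 36.5 ± 1.55 with Malt1_V87R and 31.2 ± 3.10 with Malt1_L88D, against 0.490 ± 0.265 CPM with the vector. Cxcl10, another CXCR3 ligand, had 217 ± 25.1 CPM with Malt1_WT, 42.2 ± 3.54 with Malt1_PD, 127.6 ± 8.36 with Malt1_V87R and 126.7 ± 6.07 with Malt1_L88D, against 19.2 ± 0.522 CPM with the vector. Malt1_PD was thus the lowest construct for Cxcl9 and Cxcl10 and the second highest for Cxcl1, Cxcl2 and Cxcl3. It was also the second highest for Cxcl16, a chemokine with a membrane-bound form, which had 7.38 ± 0.339 CPM with Malt1_WT, 4.23 ± 0.355 with Malt1_PD, 2.97 ± 0.371 with Malt1_V87R and 2.20 ± 0.984 with Malt1_L88D, against 1.69 ± 0.504 CPM with the vector. Cxcl16 was called lower in Malt1_V87R and in Malt1_L88D than in Malt1_PD, as Cxcl1, Cxcl2 and Cxcl3 were. Cxcl11, a further CXCR3 ligand, had 4.70 ± 0.574 CPM with Malt1_WT, 0.341 ± 0.208 with Malt1_PD, 0.706 ± 0.0573 with Malt1_V87R and 0.825 ± 0.256 with Malt1_L88D, against 0.114 ± 0.124 CPM with the vector. Against Malt1_PD, Malt1_V87R had 2 of the 4 higher and 1 lower, where 41.5% of all genes tested were called either way. Malt1_L88D had 3 higher and 1 lower, where 41.4% were called. Cxcl1, Cxcl2 and Cxcl3 were all lower in both mutants than in Malt1_PD.

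**Figure D5:**
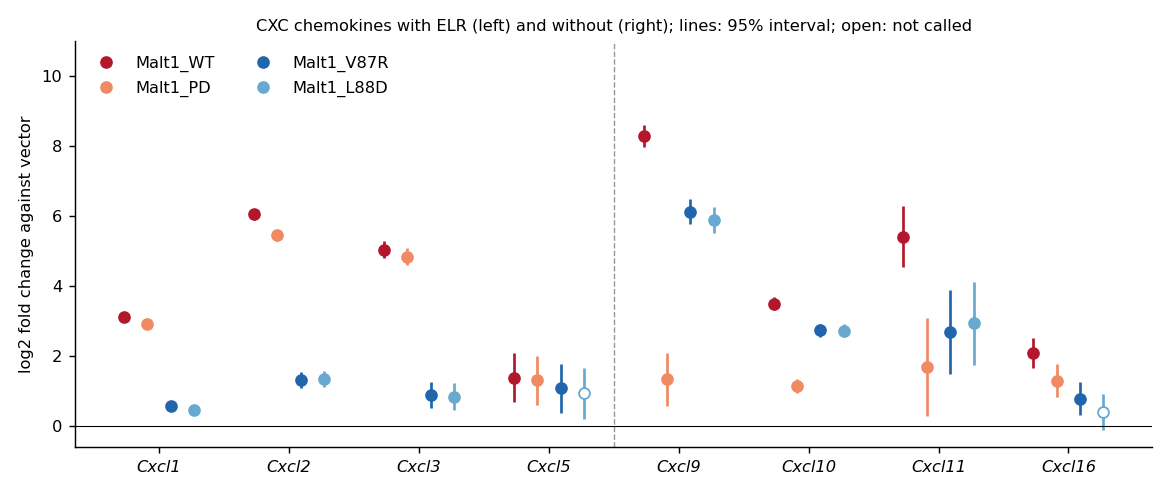
Log2 fold change against the vector of each construct, with 95% intervals, for Cxcl1, Cxcl2, Cxcl3 and Cxcl5 on the left and for the tested CXC chemokines without ELR, Cxcl9, Cxcl10, Cxcl11 and Cxcl16, on the right, with open points where the adjusted p was not under 0.05. For Cxcl2, Malt1_PD (5.45) lies far above Malt1_V87R (1.32), and for Cxcl9 Malt1_PD (1.33) lies far below Malt1_V87R (6.13), while for Cxcl16 Malt1_PD (1.29) lies above Malt1_V87R (0.78).

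Genes that feed, activate or equip neutrophils, such as colony-stimulating factors, interleukins and adhesion molecules, were mostly called higher as well. Of 13 tested among 15 listed, 13 rose in Malt1_WT (median log2 fold change 3.64) and 13 in Malt1_PD (2.82). In Malt1_V87R 11 rose (0.74) and in Malt1_L88D 11 (0.72), and none fell against the vector. Of all genes tested, 27.2% were called higher with Malt1_WT, 22.8% with Malt1_PD, 7.01% with Malt1_V87R and 8.96% with Malt1_L88D. In Malt1_PD against Malt1_WT 10 of the 13 were lower, where 10.7% of all genes tested were called lower. Il1a, interleukin-1 alpha, had 224 ± 7.40 CPM in Malt1_PD and 403.5 ± 9.38 CPM in Malt1_WT, against 8.72 ± 1.22 CPM with the vector. Il6, interleukin-6, had 120.8 ± 5.91 CPM in Malt1_PD and 290.5 ± 7.22 CPM in Malt1_WT, against 17.1 ± 0.545 CPM with the vector. Mmp9, a matrix protease that can trim chemokines, had 94.5 ± 4.06 CPM in Malt1_PD and 115.8 ± 3.12 CPM in Malt1_WT, against 13.8 ± 1.26 CPM with the vector.

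Upstream of the chemokines, receptors and adaptors of IL-17, IL-1, TNF and Toll-like signalling moved both ways. Of 13 tested among 16 listed, 6 rose and 4 fell in Malt1_WT, 6 and 4 in Malt1_PD, 4 and 0 in Malt1_V87R and 4 and 1 in Malt1_L88D. With Malt1_WT 54.9% of all genes tested were called either way, with Malt1_PD 44.8%, with Malt1_V87R 11.7% and with Malt1_L88D 17.4%. These shares are the background for this count and for those of the lists that follow, macrophage markers included. Tlr2, a Toll-like receptor for bacterial lipopeptides, had 63.2 ± 1.96 CPM with Malt1_WT, 52.0 ± 1.6 with Malt1_PD, 36.5 ± 2.12 with Malt1_V87R and 35.6 ± 1.08 with Malt1_L88D, against 18.1 ± 0.198 CPM with the vector, and was called higher in all 4. Traf6, a ubiquitin ligase downstream of IL-1 and Toll-like receptors, rose by 0.94 ± 0.06 in Malt1_WT and 0.51 ± 0.06 in Malt1_PD on the log2 scale. Irak1, a kinase of the same pathway, was lower in Malt1_WT (log2 -0.30 ± 0.04), in Malt1_PD (-0.14 ± 0.04) and in Malt1_L88D (-0.12 ± 0.04).

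A list of NF-kB subunits, their inhibitors and the 3 IKK complex genes Chuk, Ikbkb and Ikbkg had 11 of 13 tested (14 listed) higher and 1 lower in Malt1_WT, 10 and 1 in Malt1_PD, 3 and 0 in Malt1_V87R and 3 and 1 in Malt1_L88D. In Malt1_PD against Malt1_WT 4 of them were higher and 1 lower, where 12.6% of all genes tested were called higher and 10.7% lower. Nfkb1, the p105 and p50 subunit, had 541.7 ± 15.6 CPM in Malt1_PD and 427 ± 7.33 CPM in Malt1_WT, against 186 ± 7.32 CPM with the vector. Nfkbia, the inhibitor IkB-alpha and itself an NF-kB target, had 684 ± 29.4 CPM in Malt1_PD and 588 ± 22.4 CPM in Malt1_WT, against 237 ± 4.65 CPM with the vector. In the death-domain mutants Nfkbia was not called, with log2 differences of 0.05 ± 0.04 in Malt1_V87R and -0.06 ± 0.04 in Malt1_L88D.

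A list of 11 genes of proteins that bind or degrade AU-rich or stem-loop mRNAs, some of which are MALT1 protease substrates, together with Tnfaip3, gave 9 higher and 3 lower of 12 in Malt1_WT, 8 and 3 in Malt1_PD, 4 and 0 in Malt1_V87R and 5 and 0 in Malt1_L88D. Zc3h12a, which encodes the RNase Regnase-1, had 176 ± 7.21 CPM in Malt1_PD and 171 ± 0.292 CPM in Malt1_WT, against 90.5 ± 0.705 CPM with the vector. Tnfaip3, which encodes the ubiquitin-editing NF-kB inhibitor A20 and is not known as an mRNA-decay protein, had 132 ± 3.99 CPM in Malt1_PD and 150.4 ± 3.05 CPM in Malt1_WT, against 28.8 ± 0.167 CPM with the vector. Zfp36l2, a protein that binds AU-rich elements, was lower in both, with 246 ± 6.57 CPM in Malt1_PD and 221 ± 8.45 CPM in Malt1_WT, against 338 ± 14.1 CPM with the vector. Zfp36 and Zfp36l1 of the same list went the other way. Zfp36 had 46.3 ± 2.13 CPM in Malt1_PD and 104 ± 20.8 CPM in Malt1_WT, against 12.9 ± 0.904 CPM with the vector. Zfp36l1 had 42.3 ± 0.874 CPM in Malt1_PD and 44.0 ± 1.11 CPM in Malt1_WT, against 25.4 ± 2.28 CPM with the vector. These are mRNA levels, and neither decay nor protein was measured.

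Markers of other cells were read beside these results, because neutrophils and macrophages also make these chemokines. In bulk RNA, fewer cells of a type and less RNA per cell cannot be told apart. Of 14 neutrophil markers 5 were tested, of which 3 rose and 2 fell in Malt1_WT and 3 and 2 in Malt1_PD. In Malt1_V87R the counts were 3 and 0 and in Malt1_L88D 2 and 0. The shares of all genes called were 54.9% with Malt1_WT, 44.8% with Malt1_PD, 11.7% with Malt1_V87R and 17.4% with Malt1_L88D. The summed level over all 14 ran from 71.2 to 74.8 CPM with Malt1_WT, 44.9 to 53.3 with Malt1_PD, 47.8 to 53.7 with Malt1_V87R and 44.2 to 50.6 with Malt1_L88D, against 33.7 to 38.8 CPM with the vector. Most of this sum was S100a8, a calcium-binding protein that other inflamed cells also make, at 63.1 ± 3.27 CPM in Malt1_WT against 22.2 ± 2.68 CPM with the vector. S100a9, its binding partner, had 1.35 ± 0.759 CPM in Malt1_WT against 0.0155 ± 0.0268 CPM with the vector. Mmp8, a granule collagenase, had 1.62 ± 0.773 CPM in Malt1_WT against 0.406 ± 0.133 CPM with the vector, and both rose. Prtn3, a granule protease, fell, with 3.90 ± 0.975 CPM in Malt1_WT against 6.89 ± 0.579 CPM with the vector. Camp, a granule peptide gene that was not tested, reached at most 0.805 CPM in a library. The granule and receptor genes Mpo, Elane, Ngp, Retnlg and Csf3r were at or under 0.186 CPM in every library. Ly6g, a surface marker of neutrophils, was lower in Malt1_WT, at 2.46 ± 0.252 CPM against 5.82 ± 0.787 CPM with the vector.

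Of 20 macrophage markers 10 were tested, of which 5 rose and 1 fell in Malt1_WT and 8 and 2 in Malt1_PD. In Malt1_V87R the counts were 1 and 0 and in Malt1_L88D 4 and 0. The shares of all genes called were 54.9% with Malt1_WT, 44.8% with Malt1_PD, 11.7% with Malt1_V87R and 17.4% with Malt1_L88D. All 20 summed to 79.9 to 86.1 CPM with Malt1_WT, 80.5 to 85.7 with Malt1_PD, 69.6 to 72.1 with Malt1_V87R and 71.3 to 98.2 with Malt1_L88D, against 49.8 to 52.0 CPM with the vector. Cd14, a co-receptor for endotoxin, had 23.4 ± 1.32 CPM in Malt1_WT and 22.9 ± 0.476 CPM in Malt1_PD, against 8.03 ± 0.250 CPM with the vector. Like Cxcl1, Cxcl2 and Cxcl3, Cd14 was lower in Malt1_L88D than in Malt1_WT, at 8.36 ± 0.215 CPM in Malt1_L88D, and so was Cd68, a lysosomal protein gene, at 14.6 ± 1.35 CPM in Malt1_L88D and 25.2 ± 1.53 CPM in Malt1_WT. Mpeg1, the perforin-2 gene, was higher, with 28.1 ± 2.06 CPM in Malt1_L88D and 10.3 ± 1.22 CPM in Malt1_WT. Lyz2, the lysozyme gene, was also higher but uneven, running from 5.49 to 19.5 CPM in Malt1_L88D and from 2.37 to 6.90 CPM in Malt1_WT. The sums of Malt1_L88D and Malt1_WT overlapped. Ptprc, the leukocyte antigen CD45, was at most 0.295 CPM in every library. Any part of these markers in the chemokine differences was not tested beyond these values.

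T and NK cell markers were nearly absent, with 1 of 13 tested, and their sum was at most 4.43 CPM in a library. Of 5 endothelial markers tested among 8 listed, 3 rose and none fell in Malt1_WT, and of 7 fibroblast markers among 10 listed, 2 rose and 4 fell. Epithelial markers were few for a carcinoma line, with 2 of 9 tested, both lower in Malt1_WT. Krt8, a keratin, had 89.6 ± 3.97 CPM in Malt1_WT against 116.6 ± 8.62 CPM with the vector, and Epcam had 6.01 ± 0.395 CPM in Malt1_WT against 9.74 ± 1.16 CPM with the vector.

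The genes most like the chemokines were sought among 394 genes whose group means span at least 2 on the log2 scale, by Pearson's r of log2 CPM over the 15 libraries. These libraries fall into groups, so r mostly reflects the order of the groups and is given as a description. Among the closest to the mean of the 4 were Mmp9 (0.997), Tnfaip3 (0.996), Ptges, a prostaglandin E synthase (0.996), and Tnf, the tumour necrosis factor gene (0.995). For Cxcl1 they included Il1rn, the interleukin-1 receptor antagonist, and Tnfaip3, each at 0.998. For Cxcl2 they included Ptges (0.998) and Mmp9 (0.997), and for Cxcl3 they were Il1rn (0.996), Tnf (0.996) and Ccl3, a CC chemokine (0.994). Cxcl5 had looser neighbours, Fbxo40 at 0.895 (an F-box protein gene), Ccl12 at 0.829 (a CC chemokine) and Tapbpl at 0.814 (a tapasin-related protein gene). Ranked by Spearman's rho instead, 0 of the closest 3 for each gene and 2 of the closest 5 for the mean were the same genes.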

How the data were processed

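Total RNA of E0771 cells, 15 libraries in 5 groups of 3, was sequenced from stranded libraries as paired ends, per the labels. The authors deposited raw counts by gene symbol. Per the submitters' processing notes, reads were handled with Trim Galore 0.6.0, STAR 2.7.3a and featureCounts 1.6.3 on GRCm38.p6. No source used here gives the annotation release, the strand setting or how reads matching several genes were treated. Of 55571 rows, 22982 were 0 in every library.

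Counts were tested with edgeR 4.0.16 in R 4.3.3: filterByExpr, TMM factors (0.973 to 1.02), and 1 robust quasi-likelihood fit that gave each group its own mean and pooled the spread over the 15 libraries. The 10 pairwise comparisons were two-sided, each adjusted by Benjamini-Hochberg over 14571 genes with a threshold of 0.05. The common biological coefficient of variation came to 4.61%, and 95% intervals were taken from the fit. The fit was also run on simulated counts with the same spread for every gene. That setting is simpler than these libraries, so the run does not show how the fit handles their uneven replicates. Positions and transcripts came from GENCODE M21 and promoters from RefSeq. Named genes were the 4 chemokine genes, the genes most like them, and up to 3 called genes per list with the smallest adjusted p in Malt1_WT against vector (or, in a list without calls, its 2 genes of highest CPM). Of the genes most like them, 1 is not reported here. Neighbours and silent markers are named for their position or role. Cxcl11, Cxcl16, Zfp36, Zfp36l1, S100a9, Mmp8, Prtn3, Camp, Cd68, Mpeg1 and Lyz2 were named after their values were seen. The members and the lists were chosen with earlier results of these data known. Replicate pairs all differed by more than sampling noise. Same-numbered libraries correlated weakly (r from -0.051 to 0.15, over 0.1 in 2 of 30 pairs), so replicate numbers were not used as a block in the main fit. With the block, 2146 genes were called in Malt1_V87R against vector in place of 1706, and 0 in Malt1_V87R against Malt1_L88D as before.

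Alternatives were RLE and upper-quartile scaling, DESeq2 1.42.0, limma-voom (limma 3.58.1), no filter or one of 5 CPM in 3 libraries, only the 6 libraries compared, a replicate block, a threshold of 0.01, a test against a 1.2-fold change, and each library left out. The shorter Cxcl2 transcript was added after seeing the data.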

Additional observations from a re-analysis of the deposited data

How the results depend on the processing

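Directions and calls of Cxcl1, Cxcl2 and Cxcl3 against the vector, and in the death-domain mutants against Malt1_WT or Malt1_PD, were the same under every alternative run. For Cxcl3 in Malt1_PD against Malt1_WT (log2 -0.20, edgeR adjusted p = 0.058) the threshold was passed with RLE (-0.21) or upper-quartile (-0.22) scaling, limma-voom (-0.20), no filter (-0.18), the 5 CPM filter (-0.23), only the 6 libraries compared (-0.21) and the replicate block (-0.20), and leaving out 1 library gave -0.23 to -0.16. A test against 1.2-fold ended the call of Cxcl1 in the same comparison (-0.20) and left 1 of the 4 genes called there in place of 2. Cxcl5 in Malt1_V87R against vector lost its call with DESeq2 (1.08), limma-voom (1.00), only the 6 libraries (1.07), the threshold of 0.01 (1.07) and the 1.2-fold test (1.07), and single left-out libraries gave 0.74 to 1.25. In Malt1_L88D against vector they gave Cxcl5 0.79 to 1.14. Signs turned only for uncalled differences with a library left out: Cxcl2 (-0.095 to 0.053), Cxcl3 (-0.18 to 0.19) and Cxcl5 (-0.20 to 0.31) in Malt1_V87R against Malt1_L88D, and Cxcl5 in Malt1_PD against Malt1_WT (-0.32 to 0.038). Cxcl5 did not pass the 5 CPM filter, so it has no value there. The replicate block changed no other call of the 4 genes, and same-numbered libraries correlated from -0.051 to 0.15. The causes were not tested. Depth limits Cxcl5, at 8 to 34 counts a library, most.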
